A study of Mus musculus with 56 samples.

Results

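The response to Wnt3a was measured in breast cancer cells in which a mutant β-catenin allele, ΔC or dm, is paired with a floxed allele. The comparison took the 8 samples labelled ΔC/fl or dm/fl in the Wnt3a experiment, chosen by genotype, treatment and time, out of 56 samples in the series. In each genotype, 2 samples were treated with Wnt3a at 100 ng/ml and 2 were left untreated (UT), all for 3 days, which gives 4 treated against 4 untreated samples with genotype as a block. All 8 samples came from MMTV-PyMT (FVB/N) mammary tumor cells, which carry the PyMT transgene under a mammary promoter, and all kept the floxed β-catenin allele. No group among the 8 lacks that second allele. In the ΔC/- and dm/- lines used below for comparison it had been removed, and fl/fl cells carry no mutant allele. D164A/fl cells, also compared below, pair a D164A allele of β-catenin with a floxed allele. The study removed floxed alleles with an adenovirus carrying Cre and sorted the cells for GFP. Per the study's methods, the tumor lines came from thoracic mammary tumors of female mice and fibroblasts were cleared by differential trypsinization. Its methods describe the D164A lines but not the ΔC or dm lines, and neither they nor the labels say whether the replicates were different lines or cultures of the same line. A genotype and a cell line therefore cannot be told apart, and p-values measure only the spread between these samples.

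Wnt3a is a secreted ligand that binds Frizzled receptors with Lrp5 or Lrp6. Binding stops the destruction complex of Axin, Apc, Gsk3 and casein kinase, β-catenin accumulates, enters the nucleus and joins TCF/LEF factors on DNA, where it recruits Bcl9 proteins through its N-terminal repeats and further coactivators through its C-terminal end. Among the best known targets are inhibitors of the pathway itself, Axin2 above all. In mice, an allele called ΔC lacks the C-terminal part of β-catenin and an allele called dm combines that loss with the D164A change, which prevents Bcl9 binding. The labels give only the names.

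Expression was obtained by RNA-sequencing as a normalized signal, the read count of a gene per M reads of an effective library size, called CPM here. The 8 samples held 24.0 to 31.8 M reads in genes (median 26.9 M), and 3 reads, the smallest level counted as detected, were worth 0.0922 to 0.136 CPM. This limit covers counting error only. A gene was called when the adjusted p was at most 0.05 and the log2 fold change at least 1 in size. Fold changes are on the log2(CPM + 1) scale, which understates the change of genes near 0 CPM. Of the genes in the table, 12211 with 1 CPM or more in any 2 of the 8 were tested.

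Before the results, 1 library has to be set apart. Over the 9310 genes averaging 10 CPM or more, untreated replicate 1 of dm/fl correlated with the other samples at r = 0.486 to 0.772, while the other 7 correlated among themselves at r = 0.769 to 0.987. Its deviation from the other samples rose with the GC content of the transcripts, from a median of -2.38 on the log2 scale in the bin of lowest GC content to 2.11 in the bin of highest, with Spearman's rho = 0.837 across genes. Untreated replicate 2 of ΔC/fl shared the direction at rho = 0.648, and the other 6 lay between -0.727 and 0.157. The common response to Wnt3a therefore followed GC content as well (rho = -0.727 across genes, which are not independent replicates), and without untreated replicate 1 of dm/fl it did not (rho = -0.050). Without that library the response of each genotype still followed GC content, in opposite directions (rho = -0.357 in ΔC/fl and 0.315 in dm/fl). Values without this library follow where it ends a call, turns a direction or moves a value by over 1.5 times, and for the genes described first. The part of RNA quality or library preparation was not tested.

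**Figure D1:**
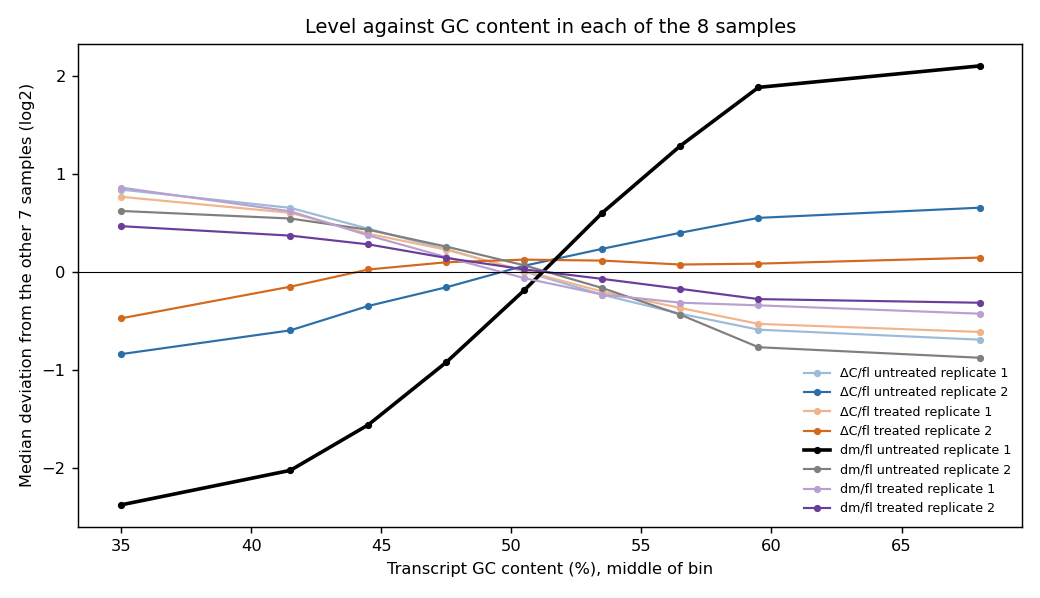
Median deviation of each of the 8 samples from the other 7 (log2, vertical axis) in bins of transcript GC content (%, horizontal axis), over genes averaging 10 CPM or more. The line of dm/fl untreated replicate 1 runs from -2.38 at the lowest to 2.11 at the highest GC content, and the lines of the other samples stay within 1 log2 unit of 0.

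The 8 samples carried markers of mammary tumor epithelium. Of 6 epithelial markers, 5 were detected in all of them (Krt19 did not), with a summed level of 1420 to 3273 CPM. Summed over 4 basal markers the level was 524 to 1205 CPM in ΔC/fl and 757 to 2732 CPM in dm/fl, and over 8 luminal markers 35.7 to 88.0 CPM and 76.5 to 155 CPM, so both ranges overlapped between the genotypes. The highest epithelial, basal and luminal sums were all those of the deviating library. Without it the basal sum was 757 to 1274 CPM and the luminal sum 76.5 to 122 CPM in dm/fl. A pair of markers, picked after their values were seen and not tested, lay apart. Trp63, a transcription factor of basal cells, was at 33.4 to 53.8 CPM in dm/fl and 0.845 to 4.83 CPM in ΔC/fl, while the junction gene Cldn7 was at 32.4 to 60.4 CPM in ΔC/fl and 0.294 to 1.5 CPM in dm/fl. Other cells left fewer reads, with 6 fibroblast markers at a summed 70.0 to 446 CPM, 4 immune markers at 1.55 to 5.56 CPM, 2 endothelial markers at 0.114 to 3.50 CPM and 2 adipocyte markers at 0. The summed fibroblast level was 108 and 446 CPM in untreated and 77.9 and 271 CPM in treated ΔC/fl cells, and 284 and 160 CPM in untreated and 259 and 70.0 CPM in treated dm/fl cells, so the ranges overlapped. No marker was called, 1 of 8 tested genes of a longer fibroblast list, Col6a3, was higher without overlap (log2 fold change 1.67) beside 0.573% of all genes tested, and the part of other cells in the response was not tested.

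Wnt3a raised 4 genes in common to the genotypes, among them Axin2, Stra6 and Ccdc80, between 3.41 and 5.04 on the log2 scale, and lowered none by the same test. The 4 called genes are 0.0328% of the genes tested, and the share called lower is 0%. At an unadjusted p under 0.05, limma gave 160 genes with higher and 186 with lower values, and edgeR's quasi-likelihood test on the whole reads also called 4 higher, of which 3 were the same, and 0 lower. By limma the 4 higher calls became 0 without treated replicate 1 of dm/fl, 2 without either untreated replicate of ΔC/fl, untreated replicate 2 or treated replicate 2 of dm/fl, and 3 without any other sample.

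Promoters of called genes are shown because TCF/LEF factors read a short motif, here the letters CTTTGAT or CTTTGAA on either strand. RefSeq windows of GRCm38.p6 (250 bases before to 50 bases after each start) were used for Axin2 and Stra6. The motif occurs in 8.65% of all 32851 windows and in at least 1 window of 9.88% of genes. It is absent from the only Axin2 window and present in 1 of 4 Stra6 windows, where capitals mark it (ATCAAAG, the reverse complement of CTTTGAT, 145 bases before the start). The Axin2 run is chr11:108920099-108920348 and the Stra6 run chr9:58129151-58129348, both on the plus strand and ending at the base before the start. A match is a description of these letters only.
Axin2: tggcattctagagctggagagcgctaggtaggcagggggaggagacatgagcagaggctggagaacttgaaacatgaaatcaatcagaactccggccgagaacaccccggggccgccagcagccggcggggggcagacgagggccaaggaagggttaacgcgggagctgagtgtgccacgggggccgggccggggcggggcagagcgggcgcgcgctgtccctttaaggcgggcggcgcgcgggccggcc
Stra6: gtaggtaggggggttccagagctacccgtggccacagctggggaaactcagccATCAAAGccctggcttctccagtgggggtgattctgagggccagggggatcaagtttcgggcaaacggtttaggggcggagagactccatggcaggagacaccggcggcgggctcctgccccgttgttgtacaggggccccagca

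Axin2 (chr11:108917828-108950783) encodes a scaffold of the destruction complex that acts as a negative feedback on the pathway. In ΔC/fl it measured 0.778 and 3.19 CPM untreated and 67.4 and 100 CPM treated. In dm/fl the values were 3.18 and 1.54 CPM untreated and 127 and 103 CPM treated. All treated samples lay above all untreated samples, in both genotypes. In bulk RNA, a change in the number of expressing cells and in the RNA per cell cannot be told apart. The common log2 fold change was 5.04 (SE 0.36, 95% interval 4.22 to 5.86, adjusted p = 0.00534, limma). Without untreated replicate 1 of dm/fl it was 5.16 (adjusted p = 0.00737).

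Stra6 (chr9:58063793-58154004) encodes the membrane receptor through which cells take up retinol. In ΔC/fl it rose from 0.0324 and 0.129 CPM, which are 1 and 3 reads, to 10.2 and 14.8 CPM. In dm/fl it rose from 2.31 and 2.37 CPM to 58.6 and 94.0 CPM. The level was higher in dm/fl than in ΔC/fl on both sides of the treatment, and no treated sample overlapped an untreated one. The common log2 fold change was 4.06 (SE 0.30, 95% interval 3.37 to 4.75, adjusted p = 0.00534, limma), and 3.97 (adjusted p = 0.00769) without the deviating library.

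Ccdc80 (chr16:45093407-45127924) encodes a secreted protein of the extracellular matrix. Its values in ΔC/fl were 0.454 and 0.517 CPM untreated and 11 and 18.2 CPM treated. In dm/fl they were 0.862 and 1.51 CPM untreated and 13.4 and 38.9 CPM treated. The groups did not overlap. The common log2 fold change was 3.41 (SE 0.36, 95% interval 2.58 to 4.24, adjusted p = 0.0383, limma), and the call was lost without the deviating library at 3.31 (adjusted p = 0.0757). It was lost in the same way without each of the other 7 samples, at 0.0557 to 0.310. Leaving out treated replicate 1 of dm/fl ended all 4 calls, those of Axin2, Stra6 and Ccdc80 at an adjusted p of 0.0557 (limma), with their log2 fold changes at 4.96, 4.11 and 3.69.

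**Figure D2:**
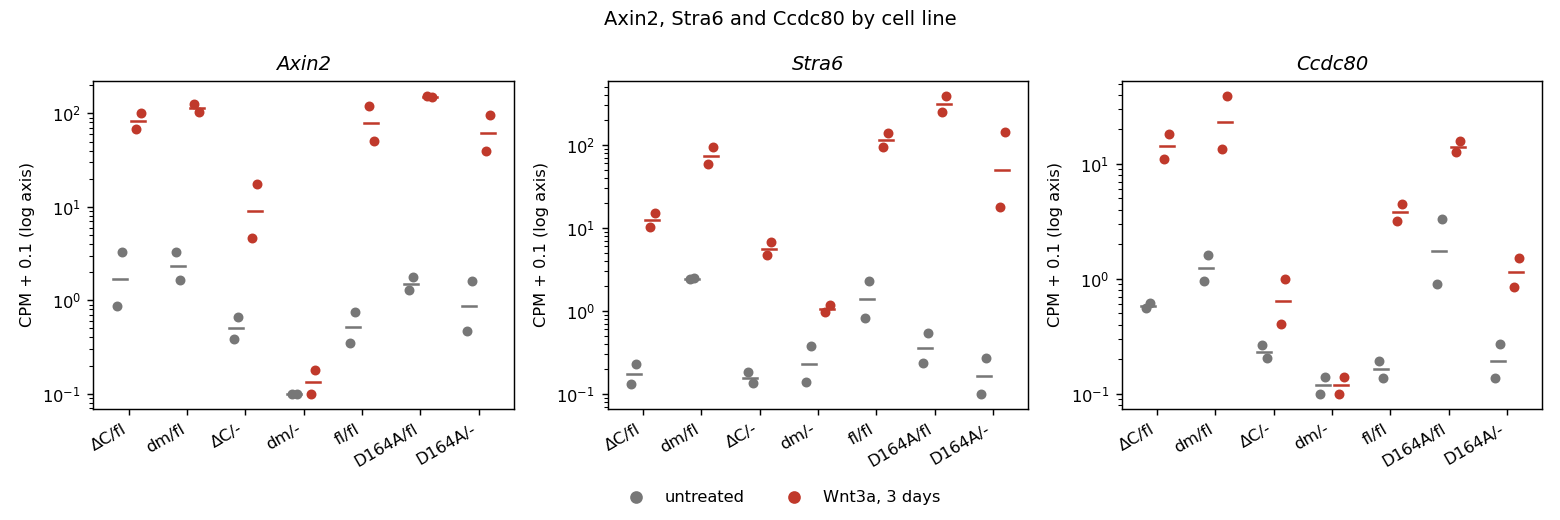
CPM + 0.1 on a log axis of Axin2, Stra6 and Ccdc80 in every Wnt3a sample, by cell line, with untreated samples in grey and treated samples in red. Treated and untreated points are apart in ΔC/fl and dm/fl for each gene, and Axin2 has no more than 0.0791 CPM in any dm/- sample.

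The same genes were untreated in a second place, the TGFβ experiment, whose untreated cells of these genotypes give a background that the test did not use. There Axin2 measured 7.12 and 2.16 CPM in ΔC/fl and 3.57 and 2.74 CPM in dm/fl, and Stra6 0.280 and 0.0635 CPM and 2.83 and 3.76 CPM. Ccdc80 was at 3.00 and 0.857 CPM in ΔC/fl and at 9.57 and 3.03 CPM in dm/fl. Every Wnt3a-treated value of these genes lay above the untreated values of both experiments in its genotype. The genes were called on these treated values, and the TGFβ experiment ran for 4 days in place of 3, so this is a description and no test.

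With the GC trend of each sample removed, 9 of 11743 genes were called higher (0.0766%) and 2 lower (0.017%), and Axin2, Stra6 and Ccdc80 were among the 9. The genes added by this setting are named after their values were seen, with Wnt9a, Cldn1 and Wdr72 overlapping between treated and untreated dm/fl samples before the trend was removed. Has2, a hyaluronan synthase, went from 30.3 and 13.5 CPM to 187 and 189 CPM in ΔC/fl and from 0.998 and 9.38 CPM to 38.1 and 71.0 CPM in dm/fl. Tcf7, a TCF/LEF factor that is itself a Wnt target, went from 13.9 and 20.4 CPM to 33.8 and 46.2 CPM in ΔC/fl and from 12.9 and 7.69 CPM to 28.8 and 25.2 CPM in dm/fl. Neither gene overlapped between treated and untreated samples. For Tcf7 the log2 fold change was 1.26 (adjusted p = 0.735, limma) as deposited and 1.52 (adjusted p = 0.0286) with the trend removed, and for Has2 3.35 (adjusted p = 0.333) and 2.68 (adjusted p = 0.0254).

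The other genes of that setting include S100a7a, an S100 protein of inflamed epithelium, with 9.18 and 10.4 CPM untreated and 44.5 and 39.5 CPM treated in ΔC/fl and 26.5 and 53.7 CPM against 91.7 and 124 CPM in dm/fl. Hs3st3b1, which sulfates heparan sulfate, and the Wnt ligand gene Wnt9a had log2 fold changes of 1.57 and 1.54 with the trend removed. The tight junction gene Cldn1 measured 59.0 and 30.5 CPM against 17.3 and 8.85 CPM in ΔC/fl, and 19.0 and 55.3 CPM against 24.4 and 18.7 CPM in dm/fl. The lowest untreated dm/fl value of Cldn1 is the deviating library, and without the trend its log2 fold change was -1.73 (adjusted p = 0.0188, limma) in place of -1.14. Wdr72 stood at -1.70 under the same setting.

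Of the genes tested, 0.573% (70) had both treated samples above both untreated samples in each genotype with a log2 fold change of at least 1, and 0.508% (62) had them below by as much. These counts describe the samples and are no test. The responses of ΔC/fl and dm/fl correlated at r = 0.540 across 9310 genes, at 0.532 across 9175 genes with the GC trend removed and at 0.30 across 9310 genes without untreated replicate 1 of dm/fl.

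**Figure D3:**
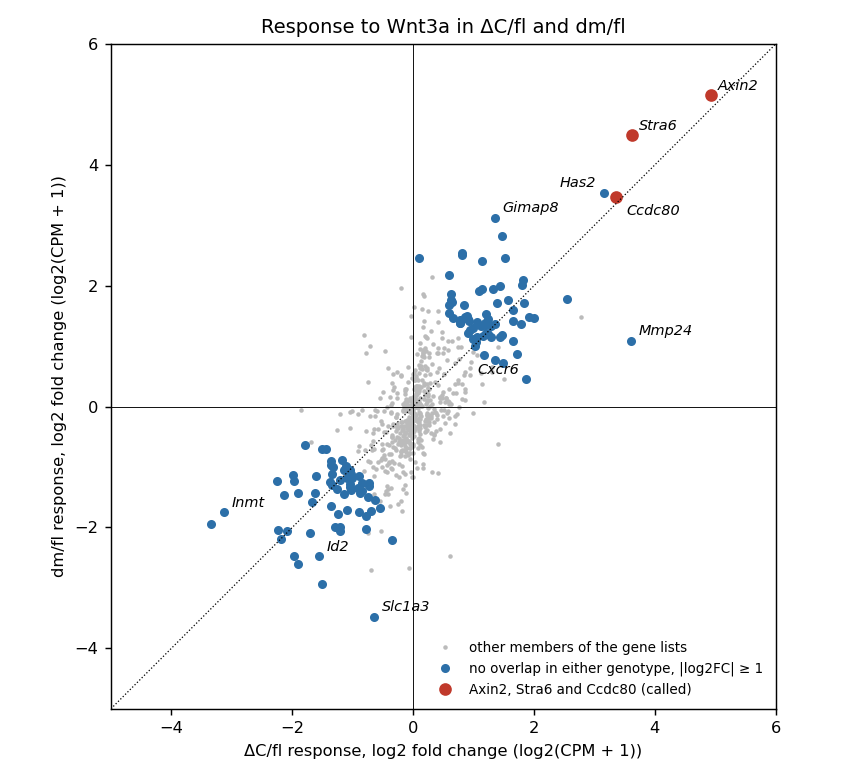
Log2 fold change with Wnt3a in ΔC/fl (horizontal axis) and dm/fl (vertical axis) for members of the gene lists and other named genes, with red points for Axin2, Stra6 and Ccdc80 and blue points for genes whose treated and untreated samples do not overlap in either genotype. The red points lie to the upper right, at 3.35 to 4.93 in ΔC/fl and 3.47 to 5.15 in dm/fl.

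The Wnt pathway was read from 6 lists with 167 genes, of which 117 passed the filter on low values and 1, Axin2, was called. Within the feedback inhibitors, 12 of 30 genes were tested, with a median log2 fold change of -0.11, against -0.02 over all genes. The list median was 0.12 with the GC trend removed and 0.08 without the deviating library. After Axin2 the highest value was that of Notum, a secreted enzyme that inactivates Wnt proteins, with 72.5 and 244 CPM untreated against 313 and 225 CPM treated in ΔC/fl and 84.3 and 19.6 CPM against 68.8 and 87.6 CPM in dm/fl. These samples overlapped, and the log2 fold change of 0.95 (SE 0.52) did not pass the test. Rnf43, a ubiquitin ligase that removes Frizzled receptors, stayed between 0.338 and 1.64 CPM, and Nkd1, Sp5 and Lgr5 had at most 0.228 CPM in any of the 8 samples.

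Ctnnb1, which encodes β-catenin, measured 1035 and 1005 CPM untreated and 886 and 800 CPM treated in ΔC/fl, and 899 in both untreated against 809 and 784 CPM in the treated samples of dm/fl. The treated values were lower in each genotype, but the log2 fold change of -0.23 (SE 0.18, 95% interval -0.64 to 0.18) did not pass the test. Reads from the mutant and the floxed allele are counted together. No TCF/LEF factor or nuclear cofactor was called among 23 tested, and their median was -0.12, but 0.08 without the deviating library and -0.01 with the GC trend removed, a setting in which Tcf7 was called. Lef1 was at 0.570 to 2.36 CPM in all samples, Tcf7l2 had a log2 fold change of 0.59 and Tcf7l1 of -0.43, the latter at 0.01 without the deviating library. Bcl9l reached 551 CPM in the deviating library and 43.6 to 177 CPM in the other 7, so its log2 fold change of -0.76 became 0.02 without that library.

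**Figure D4:**
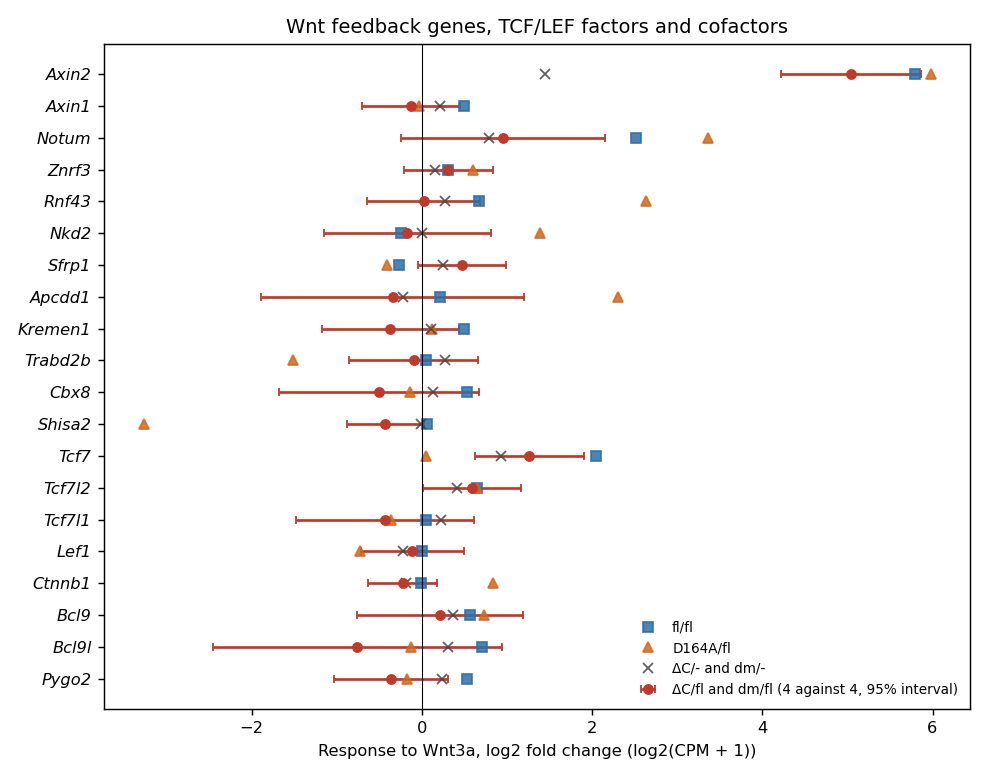
Log2 fold change with Wnt3a (horizontal axis) of Wnt feedback genes, TCF/LEF factors and cofactors, with red points and 95% intervals for ΔC/fl and dm/fl together and other symbols for fl/fl, D164A/fl and the mean of ΔC/- and dm/-. Axin2 stands at 5.04 in the red points, and Tcf7 at 1.26 is the next highest.

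Among 36 tested genes of the list of general Wnt targets, none was called and the median was 0.11, against 0.27 without the deviating library and 0.29 with the GC trend removed. With the trend removed 1 member, Cldn1, was called lower, and with the library left out as well Cldn1 and Id2 were. The cyclin gene Ccnd1 was at 1975 and 1801 CPM untreated against 2937 and 2901 CPM treated in ΔC/fl and at 2714 and 1756 CPM against 2277 and 2238 CPM in dm/fl, so only ΔC/fl was without overlap. The 2714 CPM is the deviating library, and the other untreated dm/fl sample lay below both treated samples. Myc, a transcription factor of growth, had 99.5 and 100 CPM untreated and 99.8 and 119 CPM treated in ΔC/fl, and 318 and 100 CPM against 126 and 119 CPM in dm/fl. The 318 CPM is again the deviating library, without which the direction in dm/fl turned from lower to higher. Without overlap in each genotype and higher by at least 1 were 2 of the 36, beside 0.573% of all genes. They were the matricellular gene Ccn4 (log2 fold change 1.33) and the endothelin gene Edn1 (1.22). Lower by as much was 1, Id2 (-2.01), beside 0.508% of all genes. Id2, an inhibitor of basic helix-loop-helix factors, stood at 83.7 and 90.6 CPM untreated against 34.2 and 24.7 CPM treated in ΔC/fl, and at 134 and 90.6 CPM against 19.7 and 18.3 CPM in dm/fl. Its adjusted p was 0.201 (limma), and the direction is the opposite of that of the other 2.

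Wnt ligands and their secretion machinery had 10 tested genes of 25, none called. Wls, the carrier that brings Wnt proteins to the cell surface, was at 215 and 237 CPM untreated and 372 and 625 CPM treated in ΔC/fl and at 27.8 and 206 CPM against 286 and 296 CPM in dm/fl, with a log2 fold change of 1.51, and of 0.85 without the deviating library. Of 17 receptor genes tested none was called, with Fzd7 at -0.81 and Lrp6 at 0.41 (0.18 without the deviating library), and of 19 genes of the destruction complex and Dishevelled none was called either. The medians of these 2 lists were -0.06 and 0.07. Without the deviating library both were at -0.02, and with the GC trend removed at -0.04 and -0.05, so the direction of the second turned.

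The study drew up a list of genes whose Wnt3a response depended on Bcl9 binding, chosen on other lines, the B9/B9L and D164A cells, and 37 of them were taken up. In the 8 samples, 33 were tested and 0 were called by limma or by edgeR. At an unadjusted p under 0.05 limma gave 12, all with higher values. Over all 12211 genes tested it gave 160 higher and 186 lower. The median of the list was 0.53 (0.60 without the deviating library) against -0.02 over all genes. Without overlap in either genotype were 5 of the 33, all higher, beside 0.573% of all genes. The list was chosen for responses to Wnt3a, in part in D164A cells of the same series, so its direction is not independent evidence.

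Mmp24, a membrane-bound metalloproteinase, had 1.91 and 1.77 CPM untreated and 44.4 and 25.5 CPM treated in ΔC/fl, and 267 and 76.4 CPM against 278 and 337 CPM in dm/fl. The untreated level in dm/fl was above the treated level in ΔC/fl. Il33, an alarmin cytokine, had 1.01 and 1.38 CPM against 6.46 and 3.97 CPM in ΔC/fl and 1.5 and 8.06 CPM against 59.7 and 17.5 CPM in dm/fl. Ahr, the aryl hydrocarbon receptor, had 56.4 and 37.5 CPM against 123 and 91.0 CPM in ΔC/fl and 42.8 and 69.3 CPM against 163 and 126 CPM in dm/fl. For Mmp24, Il33 and Ahr the log2 fold changes were 2.35, 2.15 and 1.28, and none passed the test after adjustment (0.770, 0.770 and 0.694, limma). Cyp1a1, the classical target of Ahr, also had no overlap, with 5.93 and 6.94 CPM against 18.6 and 22.3 CPM in ΔC/fl and 1.22 and 4.61 CPM against 8.70 and 37.9 CPM in dm/fl. Cyp1a1 was not called. The list of retinoid and Ahr genes, 16 tested, had a median of 0.21, and of 0.09 with the GC trend removed. Its values ran from -1.54 to 4.06. Higher without overlap by at least 1 were 3 of the 16, beside 0.573% of all genes. The activity of Ahr was not tested.

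**Figure D5:**
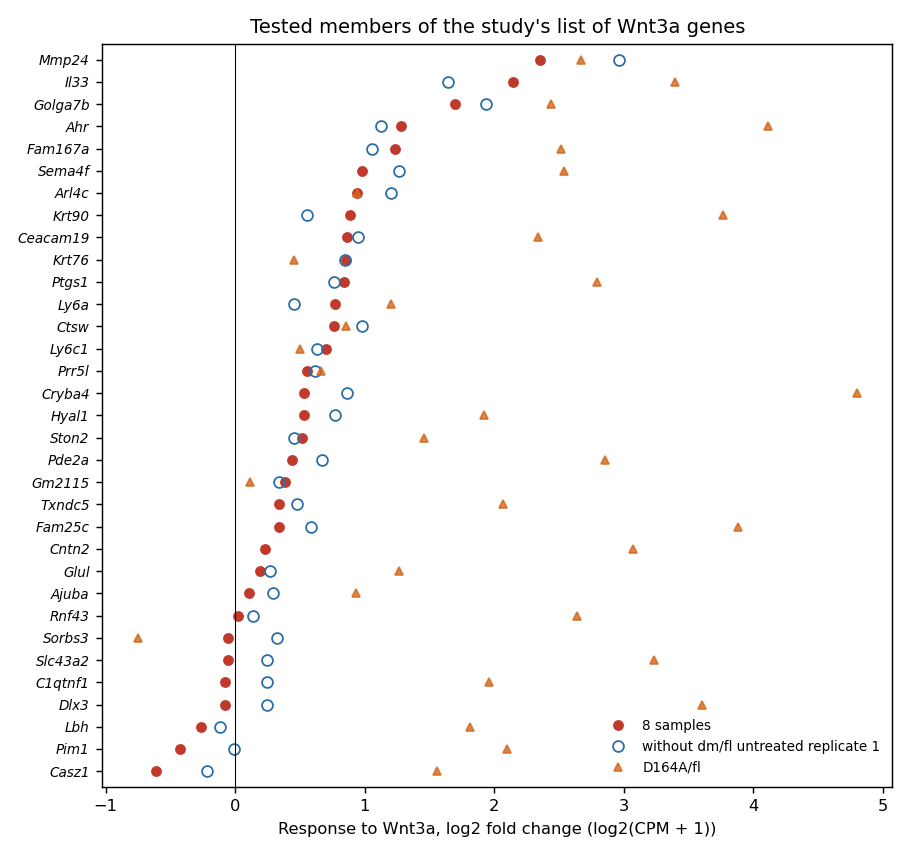
Log2 fold change with Wnt3a (horizontal axis) of the 33 tested genes taken from the study's list, with red points for the 8 samples, open blue circles without dm/fl untreated replicate 1 and orange triangles for D164A/fl. Mmp24 is highest in ΔC/fl and dm/fl at 2.35, and the median of the red points is 0.53.

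The other 20 lists (mammary lineages, squamous differentiation, hair follicle, Notch, BMP and TGFβ, YAP/TEAD, ERK feedback, cell cycle, interferon, cytokines, lipid, glycolysis, stress, retinoid and Ahr genes, epithelial and mesenchymal genes and markers of other cells) held 1 called gene, Stra6, beside 0.0328% of all genes tested. In the basal list, 3 of 12 tested genes were higher without overlap, beside 0.573% of all genes, the integrin genes Itga6 (log2 fold change 1.21) and Itgb1 (1.54) and the stem cell marker Procr (1.58). Procr measured 6.32 and 2.97 CPM untreated and 18.5 and 16.8 CPM treated in ΔC/fl and 9.62 and 6.06 CPM against 14.5 and 31.5 CPM in dm/fl. Without the deviating library Itga6 and Itgb1 stood at 0.91 and 0.92 and Procr at 1.74.

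Cytokines and chemokines had the lowest list median, -0.52 over 24 tested genes, and -0.33 without the deviating library. The chemokine genes Ccl7, Cxcl5 and Cx3cl1 were lower without overlap, beside 0.508% of all genes, and Il33 was higher, beside 0.573%. Ccl7, which attracts monocytes, was at 55.2 and 107 CPM untreated against 18.6 and 37.1 CPM treated in ΔC/fl and at 26.9 and 44.1 CPM against 6.42 and 1.91 CPM in dm/fl. Cxcl5, which attracts neutrophils, was at 151 and 98.1 CPM against 20.2 and 35.9 CPM and at 372 and 791 CPM against 157 and 245 CPM. None passed the test, at adjusted p-values of 0.735, 0.634 and 0.770 (limma) for Ccl7, Cxcl5 and Cx3cl1. The squamous list, 26 genes tested, had a median of 0.30 (0.15 without the deviating library), with no gene without overlap, and the cell cycle list, 35 genes, a median of 0.03 (0.01).

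The genotypes were also tested singly in a fit over the 28 samples of the Wnt3a experiment and 13274 genes, in which 14 conditions share an estimate of the spread. In ΔC/fl, 6 genes rose (0.0452%) and 4 fell (0.0301%), and in dm/fl 18 rose (0.136%) and 10 fell (0.0753%). Axin2, Stra6 and Ccdc80 rose in each genotype, and Gprin3 and Nrn1 fell in each, by limma. On the whole reads edgeR called 2 genes higher and 0 lower in ΔC/fl, and 4 higher and 0 lower in dm/fl. Gprin3, linked to G protein signaling in neurite growth, was at 6.13 and 5.90 CPM untreated against 0.797 and 0.331 CPM treated in ΔC/fl and at 7.71 and 7.29 CPM against 1.52 and 0.368 CPM in dm/fl, with log2 fold changes of -2.18 and -2.19. Nrn1, a membrane-anchored growth factor of neurons, was at 5.28 and 8.79 CPM against 1.18 and 1.80 CPM and at 33.2 and 44.1 CPM against 15.5 and 9.53 CPM. The 10 calls of ΔC/fl became 19 without its untreated or its treated replicate 1 and 6 without its treated replicate 2. The calls of Gprin3 and Nrn1 were lost with the GC trend removed, in ΔC/fl (adjusted p = 0.587 and 0.388, limma) and in dm/fl (0.0869 and 0.0697). In the 8-sample fit Gprin3 missed the threshold at an adjusted p of 0.061 (limma).

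Further genes of a single genotype were chosen after their values were seen. In ΔC/fl, Gpnmb, a transmembrane glycoprotein, fell by 2.60 on the log2 scale, from 7.17 and 35.6 CPM to 1.78 and 1.91 CPM. In dm/fl, Gimap8, a GTPase of the immunity-associated family, rose from 1.04 and 1.54 CPM to 17.7 and 20.1 CPM (log2 fold change 3.1), and Sema5a, an axon guidance molecule, from 7.30 and 8.61 CPM to 46.4 and 55.6 CPM (2.54). Trib2, a pseudokinase, fell in dm/fl from 34.7 and 30.7 CPM to 6.57 and 3.90 CPM (-2.47) and stood at 9.63 and 20.6 CPM against 2.81 and 2.94 CPM in ΔC/fl. The call of Trib2 was lost without the deviating library (-2.38, adjusted p = 0.188, limma). Removing the GC trend ended the calls of Gpnmb, Gimap8, Sema5a and Trib2, at adjusted p-values of 0.0697 to 0.183 (limma). The 28 calls of dm/fl became 23 without its untreated replicate 1, with 15 genes shared, 15 without its treated replicate 2, and 3172 without its untreated replicate 2, when the deviating library alone stood for untreated dm/fl cells.

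The response differed between the genotypes for 3 genes, 1 with a higher response in dm/fl (0.00753%) and 2 with a lower response there (0.0151%). Across genes this difference followed GC content (rho = -0.752, and 0.484 without the deviating library). Slc1a3, a glutamate transporter, fell in dm/fl from 14.1 and 36.7 CPM to 1.25 and 1.03 CPM and measured 0.486 and 1.21 CPM untreated and 0.0759 and 0.257 CPM treated in ΔC/fl. The difference of dm/fl minus ΔC/fl was -2.84 (SE 0.44, adjusted p = 0.0212, limma), and -3.50 without the deviating library. Cxcr6, a chemokine receptor, rose in ΔC/fl from 0.0973 and 0.215 CPM to 2.85 and 3.64 CPM and was at 0 and 0.0922 CPM against 0.494 and 0.368 CPM in dm/fl, a difference of -1.42 (SE 0.17, adjusted p = 0.000957, limma). Gngt1, a G protein subunit, was at 0 in every ΔC/fl and every untreated dm/fl sample and at 2.77 and 1.99 CPM in treated dm/fl cells, a difference of 1.75 (SE 0.17, adjusted p = 6.88e-05, limma). With the GC trend removed the difference of Gngt1 was 0.30 and that of Cxcr6 -2.20, both without a call (adjusted p = 1.00, limma), and with a pseudocount of 0.1 the calls of Slc1a3 and Cxcr6 were lost (adjusted p = 0.968). The GC trend was subtracted also from values of 0 CPM. With the trend removed and the deviating library left out, the difference was 1.74 for Gngt1 and -1.28 for Cxcr6. The call of Slc1a3 was lost without untreated replicate 1 or either treated replicate of ΔC/fl and without either treated replicate of dm/fl, at adjusted p-values of 0.0545 to 0.320 (limma). The 3 calls became 1 without treated replicate 2 of either genotype, 2 without either replicate 1 of ΔC/fl and 456 without untreated replicate 2 of dm/fl. On the whole reads edgeR called 0 genes for this difference, with 76 at an unadjusted p under 0.05 against 115 by limma. For genes of the common response the intervals of the difference held 0, at -1.47 to 1.91 for Axin2, -0.93 to 2.67 for Stra6 and -1.10 to 1.35 for Ccdc80.

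On the log2(CPM + 1) scale, cells without the floxed allele had a lower response of Axin2 and Ccdc80. The mean response of ΔC/- and dm/- minus that of ΔC/fl and dm/fl was lower for 4 genes (0.0301%) and higher for 3 (0.0226%). Across genes this difference followed GC content (rho = 0.802, and 0.538 without the deviating library). Axin2 was at 0.290 and 0.555 CPM untreated and 4.59 and 17.4 CPM treated in ΔC/-, and at 0, 0, 0 and 0.0791 CPM in dm/-. The difference was -3.59 (SE 0.57, 95% interval -4.78 to -2.40, adjusted p = 0.0117, limma), and -3.77 without the deviating library. Without treated replicate 2 of ΔC/fl the call was lost at an adjusted p of 0.0613 (limma). With a pseudocount of 0.1 the call was lost as well, at -3.32 (adjusted p = 0.385, limma). On the whole reads edgeR gave -1.61 with no call, and dm/- gives no usable fold there because 3 of its 4 samples hold no read. Ccdc80 reached 0.904 CPM at most in treated ΔC/- cells and 0.0395 CPM in dm/-, a difference of -3.18. For Stra6, with 4.59 and 6.55 CPM in treated ΔC/- cells and 0.854 and 1.07 CPM in treated dm/- cells, the difference of -2.37 did not pass the test (adjusted p = 0.592, limma).

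Cxcr6, whose difference was -1.15, and -0.21 with no call once the GC trend was removed, had at most 0.0452 CPM in any ΔC/- or dm/- sample. With the trend removed and the deviating library left out, its difference was -0.67. The 3 genes with a higher difference were Slc1a3 (2.07), Gprin3 (2.04) and Nrn1 (1.63). The calls of Gprin3 and Nrn1 in this difference were lost with the GC trend removed (adjusted p = 0.330 and 0.145, limma), and that of Gprin3 with a pseudocount of 0.1 (0.385). Of these, Gprin3 and Nrn1 fell in both floxed lines and Slc1a3 in dm/fl. Slc1a3 had at most 0.0371 CPM in any ΔC/- or dm/- sample and Nrn1 at most 0.0379 CPM, and Gprin3 was at 0.0751 to 0.416 CPM in their untreated samples, so a decrease could not be detected there. For the mean of ΔC/- and dm/- limma called 0 genes, with 41 at an unadjusted p under 0.05, and edgeR called 0, with 55. For the difference edgeR called 0, with 264 at an unadjusted p under 0.05 against 252 by limma. The 7 calls of the difference became 14 without untreated replicate 1 of ΔC/fl and 364 without untreated replicate 2 of dm/fl.

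Against fl/fl cells, which carry no mutant allele, few responses were called different. The response of fl/fl minus the mean response of ΔC/fl and dm/fl was higher in 0 genes (0%) and lower in 4 (0.0301%). Across genes this difference followed GC content (rho = 0.825, and 0.680 without the deviating library), as did the response of fl/fl alone (rho = 0.749). Axin2 was at 0.252 and 0.652 CPM untreated and 121 and 51.0 CPM treated in fl/fl, and the difference of 0.75 had an interval of -0.71 to 2.21. Stra6 went to 93.5 and 139 CPM and Ccdc80 to 3.11 and 4.42 CPM in treated fl/fl cells, with differences of 1.56 and -1.27 that did not pass the test. The 3 largest downward differences were the prolactin family gene Prl2a1 (-2.56), the phosphodiesterase gene Pde1c (-1.48) and Cxcr6 (-1.16). Prl2a1 was at 26.0 and 23.4 CPM against 3.15 and 4.46 CPM in fl/fl and at no more than 1.01 CPM in ΔC/fl and dm/fl, and its call was lost without 5 of the 8 samples (each of ΔC/fl, and treated replicate 2 of dm/fl) at 0.0599 to 0.137. On the whole reads edgeR called 0 genes in this difference, with 559 at an unadjusted p under 0.05 against 1050 by limma, and none was called with the GC trend removed, where Prl2a1 stood at -1.39, Pde1c at -0.65 and Cxcr6 turned to 0.34. With the trend removed and the deviating library left out, Cxcr6 was at -0.125. The calls of Prl2a1 and Pde1c were also lost with a pseudocount of 0.1 (adjusted p = 0.520, limma). The 4 calls became 1 without either treated replicate of ΔC/fl, 2 without its untreated replicate 2 and 32 without untreated replicate 2 of dm/fl.

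Against D164A/fl cells the response differed in the most genes, with 175 genes higher (1.32%) and 73 lower (0.55%) in D164A/fl. Across genes the rho of this difference with GC content was 0.470, and -0.033 without the deviating library. The calls were 262 without the deviating library, 482 without the other untreated dm/fl replicate and 14 by edgeR on the whole reads, all 14 among the 248. Axin2 was not among them, at 154 and 149 CPM in treated D164A/fl cells and a difference of 0.94 (interval -0.52 to 2.40), and Stra6 was, at 250 and 388 CPM and a difference of 3.88 (SE 0.74, adjusted p = 0.00563, limma). The 3 largest upward differences were Psca (6.20), Asprv1 (5.70) and Calm4 (5.66), genes of stratified epithelium. Psca reached 53.2 and 82.0 CPM in treated D164A/fl cells and 0.551 to 5.13 CPM in treated ΔC/fl and dm/fl cells. The largest downward differences were the transferrin gene Trf (-4.97) and the milk protein genes Csn3 (-4.55) and Csn1s1 (-4.17). The call of Csn3 was lost without any of 7 samples, including the deviating one, at adjusted p-values of 0.0656 to 0.0816 (limma), and that of Asprv1 without treated replicate 2 of dm/fl at 0.0571. A pseudocount of 0.1 ended the calls of Csn3 and Asprv1 (adjusted p = 0.0964 and 0.0821, limma), and removing the GC trend those of Csn3 and Csn1s1 (adjusted p = 0.176 and 0.0807, limma). Trf was at 615 and 449 CPM untreated in D164A/fl and at most at 0.0862 CPM in ΔC/fl and dm/fl, so no decrease could be detected in the latter. These comparisons share the ΔC/fl and dm/fl samples.

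Of the 37 genes of the study's list, 9 were called higher in D164A/fl than in ΔC/fl and dm/fl beside 1.32% of all genes, with list medians of 2.10 in D164A/fl, 0.96 in fl/fl, 0.42 in ΔC/fl, 0.44 in dm/fl, 0.39 in ΔC/- and 0.11 in dm/-. The list was chosen partly on the D164A lines, so its median there is not independent of that choice. How much the choice adds to that median was not tested. The squamous list, which like the others was chosen with earlier results of these data known, had medians of 0.03 in ΔC/fl and 0.08 in dm/fl against 1.93 in D164A/fl, with 13 of its 36 tested genes called higher in the difference. Rnf43 reached 27.9 and 31.3 CPM in treated D164A/fl cells, from 2.94 and 5.12 CPM, and no more than 1.64 CPM in ΔC/fl or dm/fl.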

How the data were processed

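Poly(A) RNA of the 8 samples was sequenced as single-end stranded libraries. Per the methods of the study, the authors mapped reads to mm10 with RNA-STAR, kept unique hits and counted reads starting in an exon of a RefSeq gene with QuasR. The deposited signal is a CPM value, the read count scaled to an effective library size. Dividing by the value of 1 read gave whole numbers for 100% of entries (tolerance 0.001), so read counts were recovered, and scaling factors lay between 0.826 and 1.02. All columns matched a labelled sample (0 unmapped). Of 20314 genes, 20261 matched a symbol and 17820 a GC content.

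Values were tested as log2(CPM + 1) with limma 3.58.1 in R 4.3.3 (eBayes with trend), with genotype and treatment for the 8 samples and with 14 conditions for the 28 samples, on genes that reached 1 CPM in 2 or more samples. p-values were adjusted by Benjamini-Hochberg over all genes tested. The GC trend was a lowess curve (span 0.3) per sample, and it was subtracted from all values, also those of genes without reads. The named genes are Ctnnb1, called members of the Wnt lists, up to 10 called genes of largest change in each direction without overlap, the 3 largest of each difference in each direction and called members of the other lists. Other genes were named for their lists or after their values were seen. The values of 1 gene are not reported here. It stayed in the fits and in counts over all genes, and was left out of the lists and of the named genes. The comparison and the 27 lists were chosen with earlier results of these data known. Same-numbered replicates deviated together in ΔC/fl (r = 0.838) but not in dm/fl (r = -0.092), so they were not paired. Alternatives were a pseudocount of 0.1, no filter, median-of-ratios scaling, edgeR 4.0.16 on the whole reads, all 56 samples, the replicate block, the GC trend removed, each sample left out and, added after the data were seen, the GC trend removed without untreated replicate 1 of dm/fl. Tables were made in Python 3.11.15 with pandas 2.3.3 and numpy 2.4.6. The fits were tested on simulated reads with a single dispersion, no GC trend and no deviating library. Only genes well above 0 CPM were changed there, so the simulation does not cover these features of the data.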

Additional observations from a re-analysis of the deposited data

Results flagged for a closer look

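Several responses differed between lines by a test of the difference itself, on the log2 scale. Between dm/fl and ΔC/fl these were Slc1a3 (-2.84), Cxcr6 (-1.42) and Gngt1 (1.75). Between the deleted lines ΔC/- and dm/- and the floxed lines they were Axin2 (-3.59), Ccdc80 (-3.18), Cxcr6 (-1.15), Slc1a3 (2.07), Gprin3 (2.04) and Nrn1 (1.63). Between fl/fl and the 2 floxed lines they were Prl2a1 (-2.56), Pde1c (-1.48) and Cxcr6 (-1.16). Between D164A/fl and the 2 floxed lines the largest were Trf (-4.97), Csn3 (-4.55), Csn1s1 (-4.17), Psca (6.20), Asprv1 (5.70) and Calm4 (5.66).

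Of these 18 differences, all but that of Psca were without a call in edgeR on the whole reads. With the GC trend removed, the differences of Gngt1, Cxcr6, Gprin3, Nrn1, Prl2a1, Pde1c, Csn3 and Csn1s1 were without a call, with Gngt1 at 0.30 and Cxcr6 at -2.20 (dm/fl against ΔC/fl), -0.21 (deleted lines) and 0.34 (fl/fl). With the deviating library left out as well, Gngt1 was at 1.74 and Cxcr6 at -1.28, -0.67 and -0.125 in the same order. Slc1a3, Gprin3, Nrn1, Trf, Csn3 and Csn1s1 were at no more than 1.21 CPM in the lines with the smaller response, before and after Wnt3a. Pde1c was at 3.60 and 3.07 CPM untreated and 0.858 and 0.271 CPM treated in fl/fl and at no more than 0.0307 CPM in ΔC/fl and dm/fl. Asprv1 was at 92.6 and 1.35 CPM in the treated fl/fl replicates, at 186 and 124 CPM in treated D164A/fl cells and at 0.919 to 35.9 CPM in treated ΔC/fl and dm/fl cells, so its replicates were far apart.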

How the results depend on the processing

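Over 17 alternatives, Axin2 stayed called in 16 (log2 fold change 4.81 to 5.61), Stra6 in 14 (3.84 to 5.84) and Ccdc80 in 6 (3.11 to 4.66), all in the same direction. The counts of calls, main values 4 higher and 0 lower in the common response, 0 in the study's list, 10 in ΔC/fl, 28 in dm/fl and, for the differences, 3 for dm/fl against ΔC/fl, 7 for the deleted lines, 4 for fl/fl and 248 for D164A/fl, moved more. With all 56 samples in the fit they were 50, 43, 5, 31, 79, then 14 for the deleted lines, 13 for fl/fl and 442 for D164A/fl. With edgeR they were 2 in ΔC/fl, 4 in dm/fl, 0, 0 and 0 for the first 3 differences and 14 for D164A/fl. With the GC trend removed they were 9 higher, 2 lower, 9 in dm/fl, then 1, 4 and 0 for the first 3 differences, and the fl/fl difference of Cxcr6 turned to 0.34 from -1.16. With the trend removed and untreated replicate 1 of dm/fl left out, an alternative chosen after the data were seen, they were 10, 4, 2 in the study's list, 7 in dm/fl, and 0, 3 and 0. No filter gave 2 higher and 8 for fl/fl. A pseudocount of 0.1 gave 16 in dm/fl, 1 for dm/fl against ΔC/fl, 2 for fl/fl and 156 for D164A/fl.

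Same-numbered replicates deviated together in ΔC/fl (r = 0.838) but not in dm/fl (r = -0.092, with the deviating library among them), and no label says what a number stands for. The replicate block gave 1 higher, 28 in ΔC/fl, 68 in dm/fl, 8 for dm/fl against ΔC/fl, 13 for fl/fl and 498 for D164A/fl. The replicate block with the GC trend removed gave 1 higher, 30 in ΔC/fl, 103 in dm/fl and 840 for D164A/fl, and Cxcr6 at 0.34. Leaving out each sample in turn gave 0 to 3 higher, 0 to 0 lower, 0 to 0 in the study's list, 6 to 19 in ΔC/fl, 15 to 3172 in dm/fl, 1 to 456 for dm/fl against ΔC/fl, 5 to 364 for the deleted lines, 1 to 32 for fl/fl and 208 to 482 for D164A/fl. The highest of the last 5 all came without untreated replicate 2 of dm/fl, and the lone untreated dm/fl sample was then assumed to vary like the other groups. The cause of these moves was not tested. With 2 samples per condition, and with genes at 1 or 2 reads before treatment, fold changes of low genes are imprecise.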

Other observations

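The TCF/LEF factor gene Tcf7 was at 24.1 and 24.6 CPM untreated and 33.4 and 45.0 CPM treated in ΔC/-, and at 6.27 and 6.56 CPM against 12.8 and 20.4 CPM in dm/-, the line in which Axin2 had no more than 0.0791 CPM. Its difference between the deleted and the floxed lines was -0.33 (95% interval -0.99 to 0.32), and its responses in ΔC/- and dm/-, 0.65 and 1.21, did not pass the test. In D164A/fl cells it was at 55.7 and 53.5 CPM untreated and 56.7 and 56.2 CPM treated. Notum was at 0.188 and 0.712 CPM untreated and 0.260 and 0.791 CPM treated in dm/-, and at 8.57 and 59.5 CPM against 34.7 and 131 CPM in ΔC/-. Apcdd1, a membrane inhibitor of the pathway, was at 0 or 0.0414 CPM in the 4 ΔC/- samples and at 11.8 to 63.2 CPM in ΔC/fl.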
